A study of Mus musculus with 12 samples.

Results

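The 7 genes described here, H2-Aa, H2-Ab1, H2-Eb1, Cd74, Ciita, H2-DMa and H2-DMb1, carry out presentation of antigen by MHC class II molecules, and they were followed in cultured mouse alveolar type II (AT2) cells. They were chosen by symbol, not by their values, and make up 7 of the 55450 genes in the count table. All 7 had a count in every library and all 7 passed the filter on low counts, so that each was among the 20612 genes tested. Together they held between 0.0542 and 0.107% of the counts of a library.

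AT2 cells were isolated from mice on the C57BL/6 background aged 6 to 8 weeks and grown on collagen I. WT denotes cells of AhRfl/fl mice, which carry floxed Ahr alleles and no Cre, and AhR denotes cells of Sftpc-Cre;AhRfl/fl mice, which carry the same alleles and Cre recombinase driven by the surfactant protein C gene, Sftpc. Cells received PBS or cockroach extract (CRE, not to be confused with the recombinase) at 50 µg/ml for 24 h, with 3 libraries in each of the 4 groups. AhR, the aryl hydrocarbon receptor, is a transcription factor activated by small ligands, and the design asked what the extract changed and whether the receptor in AT2 cells mattered for it. Nothing in the labels says that replicates came from separate animals or cultures, so p-values measure the spread between these samples, which may be technical.

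MHC class II molecules are pairs of an alpha and a beta chain that show peptides from endocytosed proteins to CD4 T cells. In the mouse, H2-Aa and H2-Ab1 encode the chains of I-A and H2-Eb1 the beta chain of I-E. Mice of the C57BL/6 haplotype lack the I-E alpha chain. Cd74 encodes the invariant chain, which escorts new class II molecules and fills their groove until it is degraded. H2-DMa and H2-DMb1 encode chains of H2-DM, the exchange factor that swaps the last invariant chain fragment for peptide. Ciita encodes the coactivator that switches on the whole set, through proteins bound to the X and Y boxes of class II promoters. B cells, dendritic cells and macrophages are the professional users of this pathway, and AT2 cells are known to express it in healthy lung.

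Coordinates are those of GRCm38 with the GENCODE M21 annotation. On chromosome 17, 10 class II genes lay within 252.306 kb. H2-DMa spanned chr17:34119541-34139101 on the forward strand, H2-DMb1 chr17:34153072-34160230 forward, H2-Ab1 chr17:34257689-34269419 forward, H2-Aa chr17:34282744-34287823 reverse and H2-Eb1 chr17:34305867-34316674 forward. Ciita lay apart, at chr16:10480059-10528418 on the forward strand, and Cd74 also lay outside the cluster. All 7 are annotated as protein coding. Values are for whole genes, so no exon or isoform was resolved.

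Promoter sequence was taken from RefSeq on GRCm38.p6 as 250 bases before to 50 after the start site, and 4 of the 7 members (H2-Aa, H2-Eb1, H2-DMa and H2-DMb1) were in that table. A 7-letter core of the X box, ACNGATG, and the Y box core, ATTGG (the reverse complement of CCAAT), were searched on both strands, and the letters do not overlap each other. The stretches below hold the I-A alpha gene and the I-E beta gene, the pair of members whose levels correlated most across libraries, and H2-Eb2, a neighbour of H2-Eb1 with a like promoter and a different pattern across libraries. Capitals mark the forward X core and the ATTGG that follows it, or in H2-Aa the ATTGG alone, 5′ to 3′ on the strand of the gene.
H2-Eb1, chr17:34305749-34305842, forward: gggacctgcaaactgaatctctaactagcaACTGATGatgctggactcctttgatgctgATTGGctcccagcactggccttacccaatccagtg
H2-Eb2, chr17:34325516-34325609, forward: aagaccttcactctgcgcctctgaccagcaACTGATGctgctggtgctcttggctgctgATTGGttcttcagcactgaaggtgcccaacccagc
H2-Aa, chr17:34287837-34287931, reverse: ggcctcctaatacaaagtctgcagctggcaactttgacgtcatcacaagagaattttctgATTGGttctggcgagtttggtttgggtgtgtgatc
In H2-Eb1 the X core began 88 bases before the RefSeq start and the Y core 59 bases before it, 22 bases apart, and H2-Eb2 had the same gap of 22 bases. H2-DMb1 and H2-DMb2 held both cores with a gap of 23 bases. The X core followed by the Y core within 10 to 30 bases was found in these 4 of the 8 class II genes in the table and in 52 of all 32851 promoters (0.158%). The X core alone was present in 9.85% and the Y core alone in 37.4% of all promoters. H2-Eb1 also held the Y core in the other orientation, CCAAT, at position -35 from the start, left in lower case. In H2-Aa the Y core stood 48 bases before the start. Its sole match to the 7-letter X core was on the opposite strand at position -232, outside the stretch shown. Other forms of the X box were not searched. H2-DMa held a Y core at position -198 and no match to this X core. A match is a match of letters only.

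Total counts ranged from 68878065 to 80935797 per library, so that 3 counts corresponded to 0.0371 to 0.0436 CPM (counts scaled to library size), a floor that covers counting error only. Levels are given as CPM, scaled by TMM factors between 0.969 and 1.03. All 12 AT2 markers had a count in every library, with summed levels of 4697 to 9661 CPM, and Sftpc alone lay between 3085 and 6491 CPM. Ahr itself was 42.9, 43.8 and 45.1 CPM in WT with PBS, 56.2, 50.5 and 50.1 in WT with CRE, 49.6, 40.2 and 45.7 in AhR with PBS and 51.4, 37.7 and 49.5 in AhR with CRE. With either treatment the WT and AhR groups overlapped. Over both treatments the Ahr log2 fold change of AhR against WT was -0.07 (SE 0.08, edgeR adjusted p = 0.884). Within WT, Ahr was higher in every CRE library than in every PBS library. Those groups did not overlap for 16.5% of all tested genes. The count sums all exons, so the loss of part of the transcript cannot be read from it, and the libraries are called AhR-labelled wherever a genotype direction is drawn.

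The libraries also held transcripts of leukocytes, although the isolation selected against cells bearing CD45. The summed level of 7 leukocyte genes (Ptprc, which encodes CD45, Laptm5, Coro1a, Cd53, Spi1, Tyrobp and Fcer1g) was 346, 60.3 and 17.6 CPM in WT with PBS and 310.1, 58.2 and 16.2 CPM in WT with CRE. In the AhR-labelled libraries it was 263, 56.9 and 79.6 CPM with PBS and 245, 53.8 and 77.1 CPM with CRE. The library with replicate number 1 was thus the highest of each group, 3.74 to 8.89 times the mean of the other two. Summed B cell markers ranged from 10.7 to 178 CPM, dendritic cell markers from 8.49 to 133 CPM, macrophage markers from 30.7 to 128 CPM and T cell markers from 0.309 to 36.5 CPM, and no marker of these lists was at 0 throughout a group. In bulk RNA, fewer cells of a type and less RNA per cell cannot be told apart.

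Compared per length, the members spanned a wide range of levels. Mean FPKM (fragments scaled for transcript length and library size, the authors' values) over the 12 libraries was 272 for Cd74, 24.3 for H2-Ab1, 20.3 for H2-Aa, 16.0 for H2-Eb1, 15.3 for H2-DMb1, 2.55 for H2-DMa and 0.300 for Ciita. Among the 55450 genes, of which 32083 had a count in any library, Cd74 ranked 152 and Ciita, the lowest member, 15601. Cd74 stood above H2-Ab1 in 12 of 12 libraries, at 8.05 to 15.8 times its FPKM. The chains of I-A were close to each other, with an H2-Aa to H2-Ab1 ratio of FPKM of 0.716 to 1.01 (median 0.798), and H2-Ab1 was the higher in 11 of 12 libraries. H2-Aa exceeded H2-Eb1 in 12 of 12 libraries by 1.05 to 1.46 times. H2-Eb1 and H2-DMb1 had no fixed order, H2-Eb1 being higher in 7 of 12 libraries (ratio 0.576 to 1.84). H2-DMb1 exceeded H2-DMa in all 12 libraries, by 3.18 to 9.44 times, although their proteins pair, and H2-DMb1 shares 37.6% of its 31-base words with H2-DMb2, so the split of reads between those genes is uncertain. The other members shared at most 1.74% of such words with any gene.

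The I-A alpha chain gene H2-Aa was at 151, 86.6 and 59.8 CPM in WT with PBS, 108, 60.0 and 50.1 in WT with CRE, 110, 66.9 and 100.2 in AhR with PBS and 84.0, 57.2 and 91.2 in AhR with CRE (replicate numbers 1, 2 and 3 in that order here and below). Its partner H2-Ab1 was at 126, 58.8 and 51.5 CPM in WT with PBS, 95.8, 54.7 and 43.9 in WT with CRE, 73.6, 63.2 and 77.3 in AhR with PBS and 67.7, 50.2 and 70.0 in AhR with CRE. H2-Eb1 was at 60.6, 33.2 and 20.9 CPM in WT with PBS, 44.1, 29.2 and 18.5 in WT with CRE, 49.2, 29.8 and 35.7 in AhR with PBS and 35.1, 24.1 and 32.7 in AhR with CRE. In all 3 chain genes each of the 4 groups overlapped every other. In both WT groups number 1 was the highest library and number 3 the lowest, and each CRE library of these 3 genes stood below the PBS library of its own number.

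Cd74, the invariant chain, was at 665, 588 and 439 CPM in WT with PBS, 554, 564 and 405 in WT with CRE, 450.1, 443 and 566 in AhR with PBS and 458, 435 and 542 in AhR with CRE. Its highest library was only 1.64 times its lowest, the narrowest range of the 7 members, against 3.02 times for H2-Aa, 2.88 for H2-Ab1 and 3.27 for H2-Eb1. H2-DMa, the alpha chain of the peptide exchange factor, was at 18.4, 10.8 and 7.64 CPM in WT with PBS, 11.6, 8.19 and 7.19 in WT with CRE, 9.72, 10.6 and 8.00 in AhR with PBS and 9.76, 6.43 and 9.40 in AhR with CRE. Its beta chain H2-DMb1 was at 28.5, 42.3 and 31.4 CPM in WT with PBS, 24.6, 25.2 and 26.1 in WT with CRE, 27.7, 30.2 and 27.5 in AhR with PBS and 24.3, 29.3 and 27.0 in AhR with CRE. The alpha and beta chain genes did not follow each other: H2-DMa was highest in the WT PBS library numbered 1 and H2-DMb1 in the one numbered 2. H2-DMb1 was also the sole member whose number 1 library was the highest of no group.

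Ciita, the coactivator, was at 7.27, 1.96 and 0.64 CPM in WT with PBS, 4.11, 0.87 and 0.86 in WT with CRE, 7.61, 2.89 and 3.42 in AhR with PBS and 4.54, 2.38 and 1.38 in AhR with CRE. Number 1 was the highest library of every group, and the highest of all was 11.8 times the lowest. Group means were 3.29 ± 3.51 CPM (SD, n = 3) in WT with PBS, 1.95 ± 1.87 in WT with CRE, 4.64 ± 2.59 in AhR with PBS and 2.77 ± 1.62 in AhR with CRE, so that the SD was about as large as the mean in WT. The annotated spans of Ciita and of the gene Dexi on the opposite strand overlap on the genome. So do those of H2-DMa and Brd2 (mean counts of 243 and 1083, and of 747 and 29638). Overlap of exons or reads was not examined, and whether counting used strand is not given in the sources used here.

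**Figure D1:**
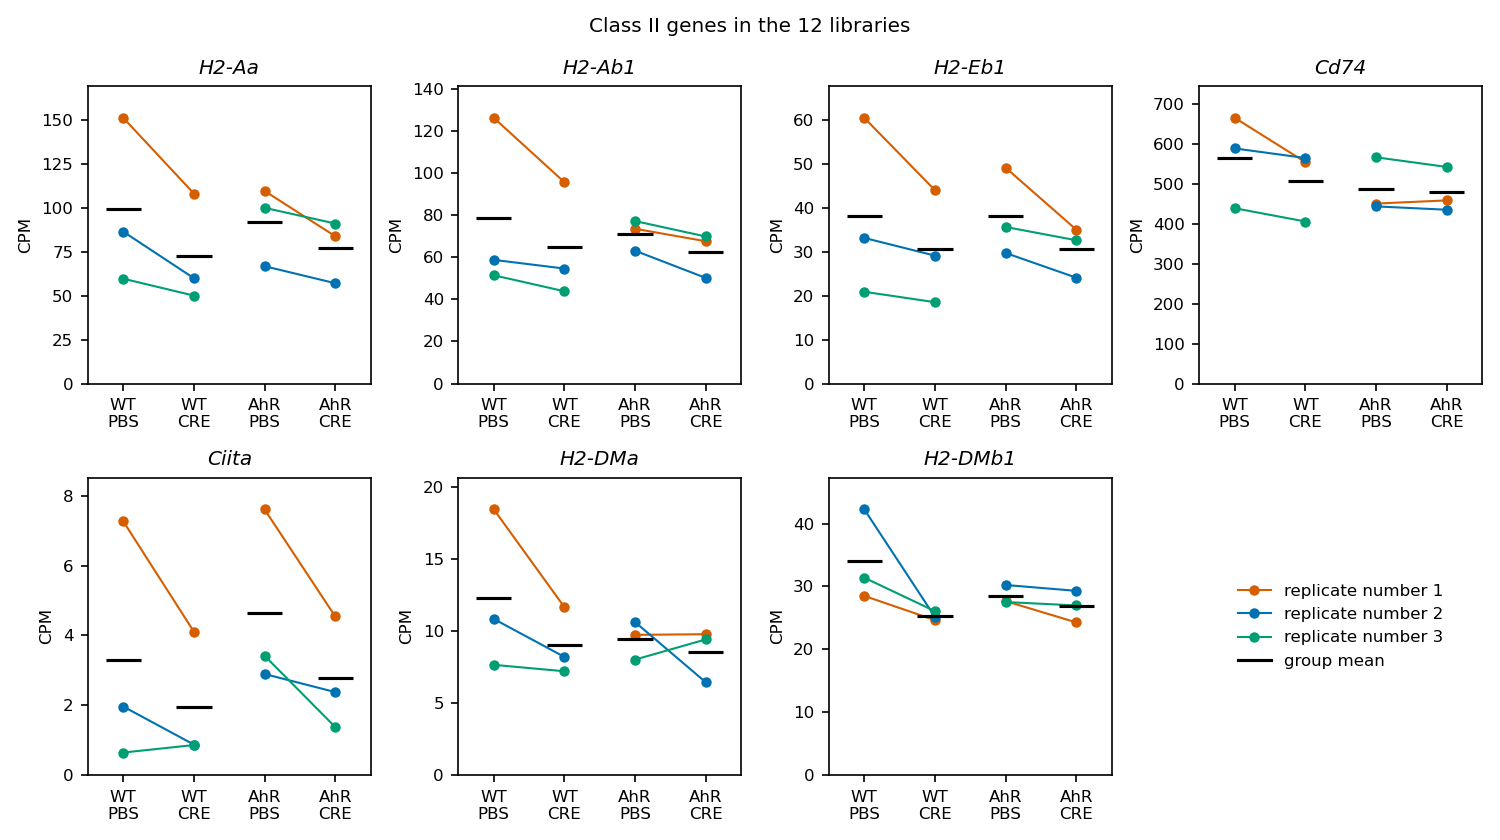
Level of each of the 7 class II genes (y axis, CPM, from 0) in the 12 libraries by group (x axis), with lines joining the PBS and CRE libraries of the same replicate number within a genotype and a bar at the group mean. The lines of H2-Aa, H2-Ab1, H2-Eb1 and H2-DMb1 run downward in all 6 pairs, and number 1 is the highest library of every group for H2-Eb1 and Ciita.

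The members differed in how far they followed the leukocyte transcripts. Over the 12 libraries Pearson's r of the log2 CPM with the mean log2 CPM of the 7 leukocyte genes was 0.93 for H2-Eb1, 0.89 for Ciita, 0.84 for H2-Aa, 0.84 for H2-Ab1, 0.71 for H2-DMa, 0.48 for Cd74 and -0.29 for H2-DMb1 (Spearman's rho 0.97, 0.88, 0.93, 0.94, 0.76, 0.64 and -0.33). These points share libraries, pairs and depth and are given as a description. Across the 8 libraries numbered 2 and 3 the same r was 0.92 for H2-Eb1, 0.73 for Ciita, 0.70 for H2-Aa, 0.75 for H2-Ab1, 0.46 for H2-DMa, 0.71 for Cd74 and 0.09 for H2-DMb1. With the mean of the AT2 markers, r was 0.43 for Cd74, 0.43 for H2-DMb1, -0.11 for H2-Aa and -0.51 for Ciita.

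The size of that relation separated the genes further. In an edgeR fit with the 4 group means and the leukocyte level as a covariate, chosen after seeing the data, a doubling of the leukocyte level went with a log2 difference of 0.68 (SE 0.08) in Ciita, 0.32 (SE 0.03) in H2-Eb1, 0.28 (SE 0.04) in H2-Aa, 0.26 (SE 0.04) in H2-Ab1 and 0.21 (SE 0.05) in H2-DMa. The slope was 0.09 (SE 0.04) for Cd74 and -0.04 (SE 0.03) for H2-DMb1. A gene in strict proportion to the leukocyte genes has a slope of 1. The 4 other class II chains stood nearer to it than any member, at 1.09 (SE 0.05) for H2-Eb2, 0.96 (SE 0.07) for H2-Ob, 0.90 (SE 0.11) for H2-Oa and 0.79 (SE 0.05) for H2-DMb2. So did Ctss, the cathepsin that trims the invariant chain in professional presenting cells, at 1.07 (SE 0.05), whereas Sftpc had a slope of -0.05 (SE 0.07). What share of each member's RNA came from leukocytes was not tested.

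**Figure D2:**
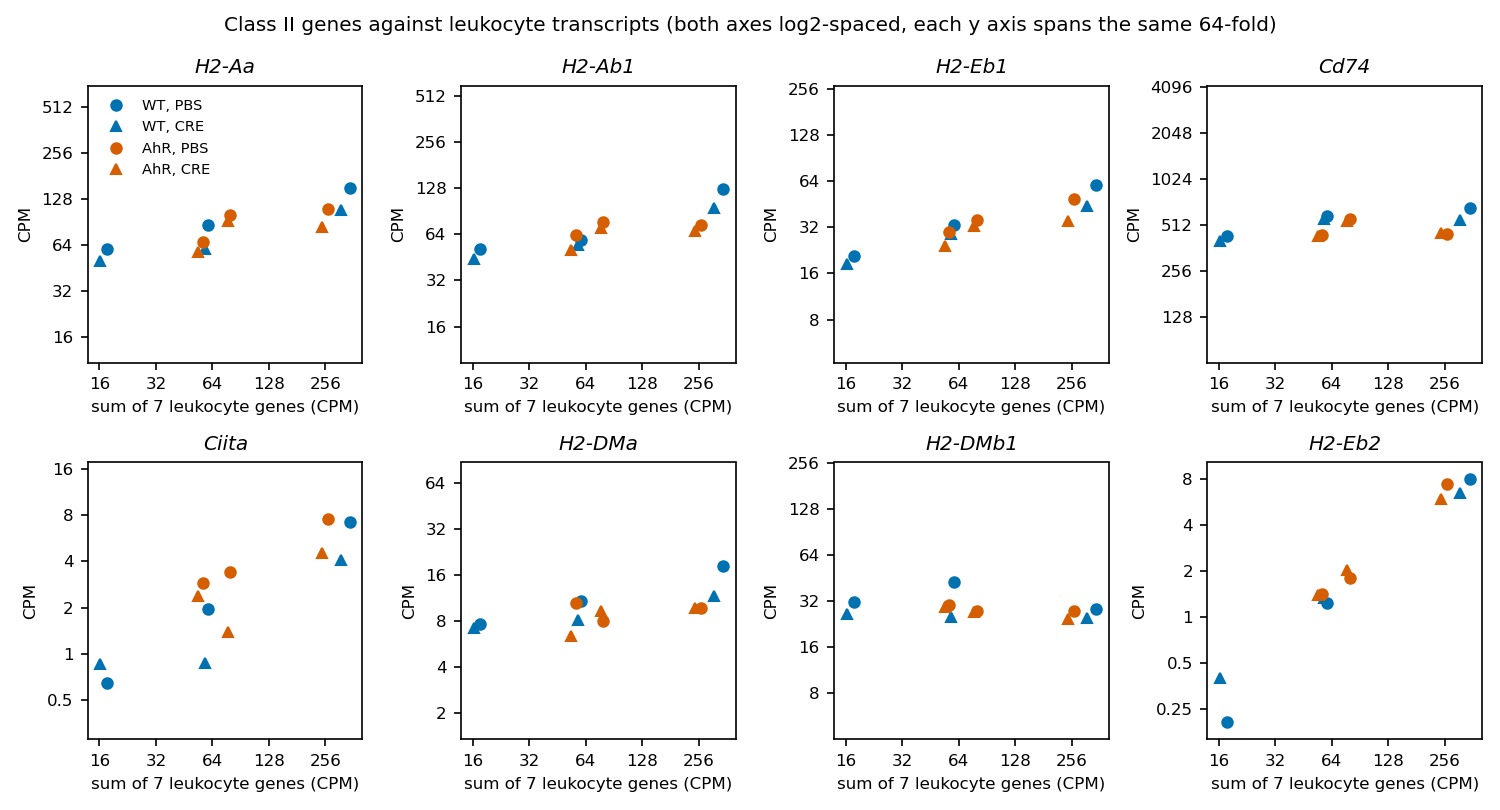
Level of each member and of H2-Eb2 (y axis, CPM, log2-spaced) against the summed level of 7 leukocyte genes (x axis, CPM, log2-spaced), each point a library, with colour for genotype and shape for treatment; every y axis spans the same range of fold. H2-Eb2 and Ciita climb with the leukocyte sum, H2-Aa, H2-Ab1 and H2-Eb1 climb less, and Cd74 and H2-DMb1 stay nearly level.

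**Figure D3:**
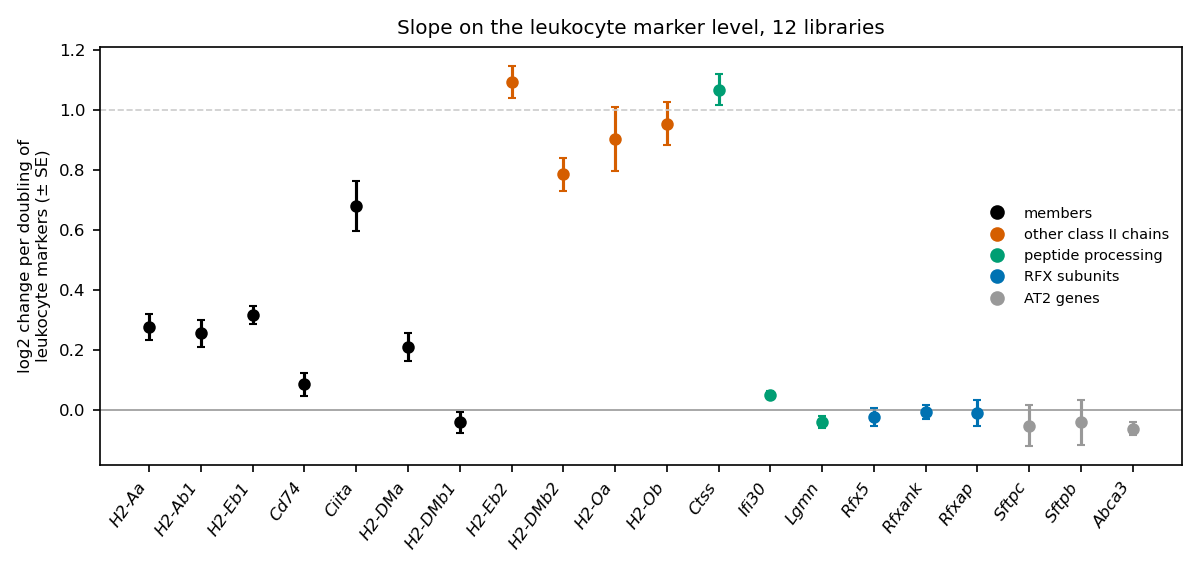
Log2 difference per doubling of the leukocyte marker level (y axis, points with SE bars) for the members, other class II chains, peptide processing genes, RFX subunits and AT2 genes (x axis), from a fit over 12 libraries with 4 group means. The dashed line marks strict proportion, near which H2-Eb2, H2-Ob, H2-Oa and Ctss lie, while Cd74 (0.09) and H2-DMb1 (-0.04) lie near 0.

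CRE against PBS asked whether cockroach extract changed the class II genes. In the fit of 4 group means no member passed an adjusted p of 0.05 in WT cells, in AhR-labelled cells or over both genotypes. The percentages of all tested genes that passed were 0.233% in WT, 0.262% in AhR and 1.10% over both. At an unadjusted p under 0.05 the count was 1 of 7 in WT (H2-DMb1), 0 of 7 in AhR and 1 of 7 over both (H2-DMb1), beside 9.36, 6.48 and 11.1% of all tested genes, and DESeq2 and limma-trend gave the same counts and no adjusted call. All 14 fold changes of the 7 members in the 2 genotypes were below 0 with all libraries in the fit. Without the WT PBS library numbered 1, those in WT were 0.58 for Ciita, 0.23 for H2-Ab1 and 0.18 for H2-Eb1, and in AhR Cd74 reached 0.099 without the PBS library numbered 3 and H2-DMa 0.020 without the CRE library numbered 2. The median member log2 fold change was -0.43 in WT, -0.19 in AhR and -0.30 over both genotypes, beside medians of -0.0012, -0.0027 and -0.0021 over all genes tested, of which 50.2 to 50.5% lay below 0.

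In WT the log2 fold change was -0.45 for H2-Aa (95% interval -1.27 to 0.37), -0.15 for Cd74 (-0.54 to 0.24) and -0.76 for Ciita (-2.70 to 1.19). H2-DMb1 had the narrowest interval, -0.43 (-0.73 to -0.13; edgeR adjusted p = 0.332), with group means of 34.0 ± 7.26 CPM for PBS and 25.3 ± 0.73 CPM for CRE (SD, n = 3). Its 3 CRE libraries lay below all 3 PBS libraries, the sole member of 7 whose WT groups did not overlap, where 16.5% of all tested genes did not overlap. In AhR the H2-DMb1 log2 fold change was -0.08 (-0.38 to 0.21), its groups overlapped, and the difference between the genotypes in that change was 0.34 (-0.08 to 0.77; adjusted p = 1.00), so it was not shown to differ. In AhR-labelled cells the other members ranged from -0.75 for Ciita to -0.02 for Cd74 (-0.41 to 0.36), none without overlap of the groups, where 11.8% of all tested genes did not overlap.

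CRE and PBS libraries of the same number within a genotype deviated together, so the comparison was also made within pairs. H2-Aa was lower with CRE in 6 of 6 pairs, with log2 ratios of -0.48, -0.53 and -0.25 in WT and -0.39, -0.23 and -0.14 in AhR. H2-Ab1 was lower in 6 of 6 pairs (-0.40, -0.11 and -0.23 in WT and -0.12, -0.33 and -0.14 in AhR), and so was H2-Eb1 (-0.46, -0.19 and -0.17 in WT and -0.49, -0.30 and -0.13 in AhR). H2-DMb1 was lower in 6 of 6 pairs as well, with ratios from -0.75 to -0.03. Cd74 and Ciita were lower in 5 of 6 pairs and H2-DMa in 4 of 6. Over all tested genes, 6.79% were lower in all 6 pairs and 18.5% in 5 or 6 pairs, against 4 and 6 of the 7 members. H2-Aa, H2-Ab1 and H2-Eb1 correlated at r of 0.92 to 0.95 across the libraries, so the members are not independent observations.

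With the pair as a block, H2-Aa passed the test in WT, at a log2 fold change of -0.42 (SE 0.07, 95% interval -0.59 to -0.25; edgeR adjusted p = 0.0312), where 3.63% of all tested genes passed. No member passed in AhR, where 2.13% of genes did and the H2-Aa value was -0.25 (-0.42 to -0.08; adjusted p = 0.169). Over both genotypes H2-Aa fell by 0.34 on the log2 scale (SE 0.05; adjusted p = 0.0117) and H2-Eb1 by 0.29 (SE 0.06; adjusted p = 0.0469), 2 of 7 members beside 6.59% of all genes. H2-Ab1 stood at -0.22 (SE 0.05; adjusted p = 0.0502), Ciita at -0.67 (0.161), H2-DMb1 at -0.25 (0.129), Cd74 at -0.08 (0.209) and H2-DMa at -0.27 (0.340), with the adjusted p in parentheses. Relative to the fit of group means, pairing reduced the SE of the change over both genotypes 5.13-fold for H2-Aa, 4.26-fold for H2-Eb1, 2.69-fold for Ciita and 1.22-fold for H2-DMb1.

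The paired calls were small in size and changed with the pairs included. Leaving out replicate number 1 from every group, the libraries richest in leukocyte transcripts, left no member called, where 0.677% of genes were called in WT and 2.19% over both genotypes (this and the next choices were made after seeing the data). H2-Aa was then -0.39 in WT (adjusted p = 0.157) and -0.29 over both genotypes (adjusted p = 0.113), and H2-Eb1 -0.20 (adjusted p = 0.211). Without number 2 no member was called either, with H2-Aa at -0.31 over both genotypes (adjusted p = 0.108; 1.51% of genes called). Without number 3 H2-Aa alone passed over both genotypes, at -0.41 (adjusted p = 0.0442; 1.15% of genes called). With the leukocyte level as a covariate in place of the block, H2-Aa was -0.31 (adjusted p = 0.290) and H2-Eb1 -0.26 (adjusted p = 0.169) over both genotypes, where 2.15% of genes were called. Within pairs over both genotypes the leukocyte genes had a median of -0.10. Of these 7 genes 1 was called (Laptm5, -0.29), where 6.59% of all tested genes were. Sftpc was at -0.09 in that fit (edgeR adjusted p = 0.0157). Sftpc was lower with CRE in 3 of 3 WT pairs (-0.23, adjusted p = 0.0038) and in 0 of 3 AhR pairs (0.05, adjusted p = 0.384), and the interaction was 0.28 (adjusted p = 0.275). Their part in the class II values was not tested.

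**Figure D4:**
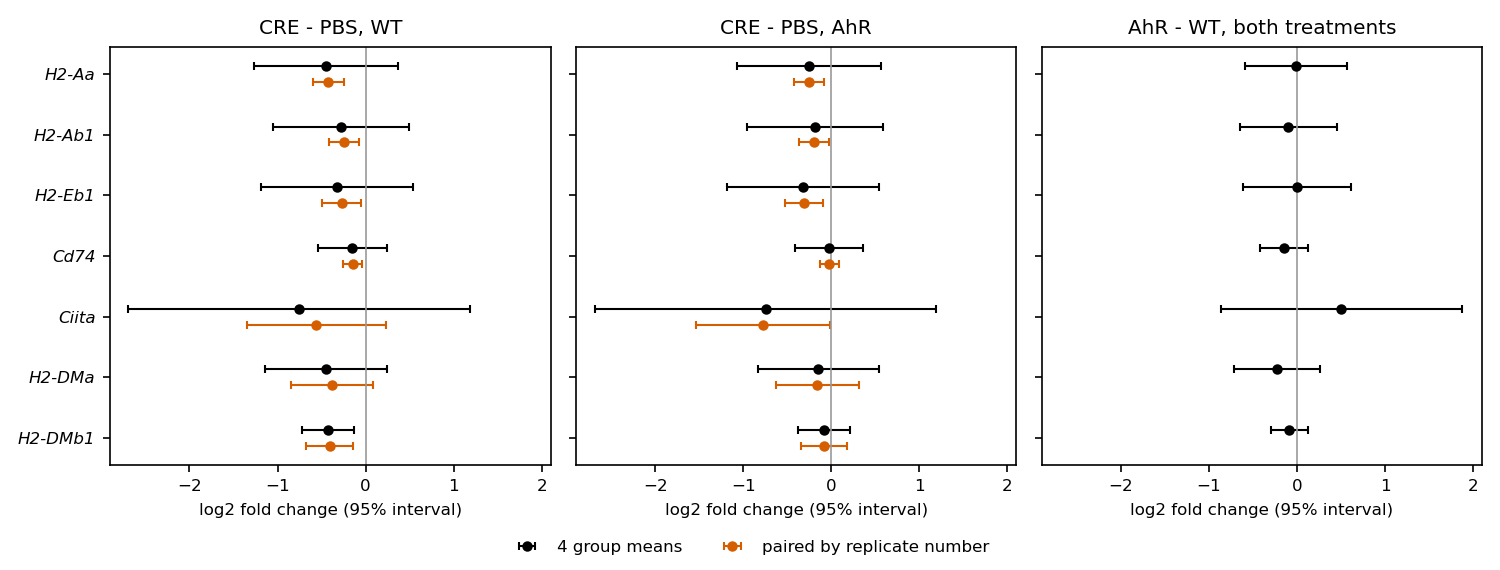
Log2 fold change of each member (x axis, with 95% intervals) for CRE against PBS in WT, CRE against PBS in AhR, and AhR against WT over both treatments, from the fit of 4 group means (black) and, for CRE, with libraries paired by replicate number (orange). Pairing narrows the intervals of H2-Aa, H2-Ab1 and H2-Eb1 around nearly the same values, and every interval of AhR against WT spans 0.

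AhR-labelled against WT libraries asked whether the receptor's deletion changed the class II genes. The limit given above applies, that the Ahr count did not separate the genotypes. No member passed with PBS (0.150% of all tested genes did), with CRE (0.170%) or over both treatments (0.631%). In fits of 4 group means to all 12 libraries none had an unadjusted p under 0.05 with edgeR, DESeq2 or limma-trend. There edgeR gave 8.37, 5.95 and 9.93% of all tested genes. Over both treatments, other edgeR fits gave Ciita an unadjusted p of 0.043 (replicate block), 0.049 (leukocyte covariate) and 0.018 (8 libraries numbered 2 and 3). None of these passed after adjustment. Over both treatments the log2 fold change was -0.01 for H2-Aa (95% interval -0.59 to 0.57), -0.10 for H2-Ab1 (-0.64 to 0.45), 0.00 for H2-Eb1 (-0.61 to 0.61) and -0.15 for Cd74 (-0.42 to 0.13). It was -0.23 for H2-DMa (-0.72 to 0.26), -0.09 for H2-DMb1 (-0.30 to 0.13) and 0.50 for Ciita (-0.87 to 1.87). As ratios, these intervals ran from 0.640 to 1.53 in the 3 chain genes and up to 3.66 in Ciita. For no member did the WT and AhR-labelled groups fail to overlap, with PBS or with CRE, where 14.0% and 11.0% of all tested genes did not overlap.

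Ciita was the member that moved most with the choice of libraries. In the 8 libraries numbered 2 and 3, chosen after seeing the data, it stood at 1.38 to 3.42 CPM in the AhR-labelled and 0.64 to 1.96 CPM in the WT libraries, a log2 difference of 1.20 (95% interval 0.28 to 2.11). The edgeR adjusted p was 0.421, so this was not a call, where 0.312% of genes were called. The summed leukocyte genes in the same libraries were 53.8 to 79.6 CPM in AhR and 16.2 to 60.3 CPM in WT. In all 12 libraries with the leukocyte level as a covariate, the Ciita difference was 0.52 (95% interval 0.0017 to 1.03; edgeR adjusted p = 0.425). The part of leukocytes in the Ciita values was not tested. The change with CRE was not shown to differ between the genotypes for any member (interaction 0.00 to 0.34 on the log2 scale, adjusted p = 1.00 for all 7), and 0.00% of all genes passed that edgeR test, paired or not. At an unadjusted p under 0.05 the interaction count was 0 of 7 members with edgeR (3.70% of all tested genes), DESeq2 and limma-trend.

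Of the other class II genes, H2-Ea-ps, the I-E alpha pseudogene of this haplotype, had 3 counts in each of the WT libraries numbered 1 and none elsewhere, and was not tested. H2-Eb2 was at 7.93, 1.23 and 0.21 CPM in WT with PBS and 7.36, 1.41 and 1.80 CPM in AhR with PBS, and its highest library was 38.5 times its lowest. H2-Oa and H2-Ob, which encode the chains of H2-DO, an inhibitor of H2-DM found mainly in B cells, ranged 26.4-fold and 17.3-fold, and H2-DMb2, the second beta chain of H2-DM, 12.9-fold. All 4 were highest in number 1 of every group. None was called in any of the 7 comparisons (in the fit of group means 0.00 to 1.10% of all tested genes were). Their paired log2 fold changes with CRE over both genotypes were 0.05 for H2-Eb2, -0.25 for H2-DMb2, -0.35 for H2-Ob and -0.0040 for H2-Oa.

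Transcripts of the proteins that carry CIITA to class II promoters varied far less among libraries than Ciita, H2-Eb2, H2-Oa, H2-Ob and H2-DMb2. They did not all vary less than every member. The highest library was 2.41 times the lowest for Creb1, against 1.64 for Cd74 and 1.74 for H2-DMb1. The RFX subunits Rfx5, Rfxank and Rfxap, which bind the X box, were at 21.5 to 31.1, 17.6 to 22.4 and 10.0 to 15.7 CPM, and their slopes on the leukocyte level were -0.02, -0.01 and -0.01. The Y box subunits Nfya, Nfyb and Nfyc were at 24.9 to 50.7, 39.3 to 57.6 and 37.4 to 63.3 CPM, and the X2 box factor Creb1 at 33.8 to 81.6 CPM. Among these and the coactivators Crebbp and Ep300, 0 of 9 genes passed in the fit of group means in any comparison. Within pairs Ep300 rose in WT by 0.36 on the log2 scale (edgeR adjusted p = 0.0342), where 3.63% of all tested genes passed. None of the 9 passed over both genotypes (6.59% of all tested genes did), where Rfx5 was at 0.18 (adjusted p = 0.220) and Ep300 at 0.11 (adjusted p = 0.220).

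Genes for peptide processing differed in their range. Ifi30, which encodes the thiol reductase of endosomes, was at 87.5 to 114 CPM and Lgmn, the asparaginyl endopeptidase, at 91.4 to 127 CPM. Ctss ranged from 3.15 to 107 CPM. Of the 9 genes tested in this list, 0 passed in the fit of group means, where 0.00 to 1.10% of all tested genes did. Within pairs Ctss alone passed, falling by 0.61 on the log2 scale over both genotypes (SE 0.08, edgeR adjusted p = 0.0072), where 6.59% of all tested genes passed. It was lower with CRE in 6 of 6 pairs, and without the number 1 libraries its adjusted p was 0.0952. In that paired fit, where 6.59% of all tested genes passed, 2 of 7 dendritic cell markers did. Itgax, which macrophages also express, was lower (-0.85, edgeR adjusted p = 0.0018) and Ccr7 higher (0.34, adjusted p = 0.0425). Of 9 macrophage markers 4 were lower, Ear2, Mrc1, Mertk and Siglecf, and Adgre1 was higher by 1.92 on the log2 scale. The part of these cells in the change of Ctss was not tested.

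Interferon gamma is the classical inducer of Ciita, so its pathway was described beside the members. In the fit of group means none of 7 pathway genes, 12 response genes and 6 costimulatory genes passed. Over both genotypes, where 1.10% of all tested genes passed, Cxcl10 was at 0.69 (edgeR adjusted p = 0.0557) and Irf1 at 0.32 (adjusted p = 0.0687). Within pairs, where 6.59% of all tested genes passed, 2 of 7 pathway genes did, both higher with CRE: Irf1, an interferon-induced transcription factor, by 0.32 (SE 0.07; adjusted p = 0.0353) and Ifngr2, a chain of the receptor, by 0.18 (SE 0.04; adjusted p = 0.0364). Irf1 was higher in 6 of 6 pairs. Ifngr1, the other receptor chain, had a paired value of 0.15 (adjusted p = 0.562). Of the 12 response genes 2 passed, both higher: the chemokine Cxcl10 by 0.69 (SE 0.06; adjusted p = 0.0012) and the guanylate-binding protein Gbp6 by 0.70 (SE 0.15; adjusted p = 0.0390).

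Cxcl10 is also a target of type I interferon and NF-kB. It was at 11.9, 10.1 and 8.37 CPM in WT with PBS and 16.7, 14.1 and 12.9 CPM with CRE, and at 11.1, 11.7 and 15.0 CPM in AhR with PBS and 19.1, 19.7 and 29.5 CPM with CRE. CRE and PBS groups did not overlap in either genotype, where 16.5% of all tested genes did not overlap in WT and 11.8% in AhR. Cxcl10 was the sole gene of the pathway lists that still passed within pairs without the number 1 libraries. It was then at 0.71 (edgeR adjusted p = 0.0273), where 2.19% of all tested genes passed. The corresponding adjusted p was 0.0908 for Irf1 and 0.108 for Gbp6.

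Peptide on class II needs a second signal to activate a T cell, from costimulatory ligands. Within pairs 2 of 6 of these genes passed over both genotypes (6.59% of all tested genes did), both higher with CRE: Cd274, which encodes the inhibitory ligand PD-L1, by 0.32 (SE 0.06; adjusted p = 0.0268) and Cd80, an activating ligand, by 0.80 (SE 0.17; adjusted p = 0.0383). Cd274 was higher in 6 of 6 pairs. Cd86, the other main activating ligand, was at 0.10 to 5.74 CPM with a paired value of 0.50 (adjusted p = 0.287). Slopes on the leukocyte level were 0.53 for Cd274, 0.68 for Cd80 and 1.02 for Cd86, and without the number 1 libraries neither Cd274 (adjusted p = 0.227) nor Cd80 (adjusted p = 0.182) passed. In the AhR-labelled against WT comparisons 0 genes of these lists passed, where 0.150% of all tested genes did with PBS, 0.170% with CRE and 0.631% over both treatments.

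**Figure D5:**
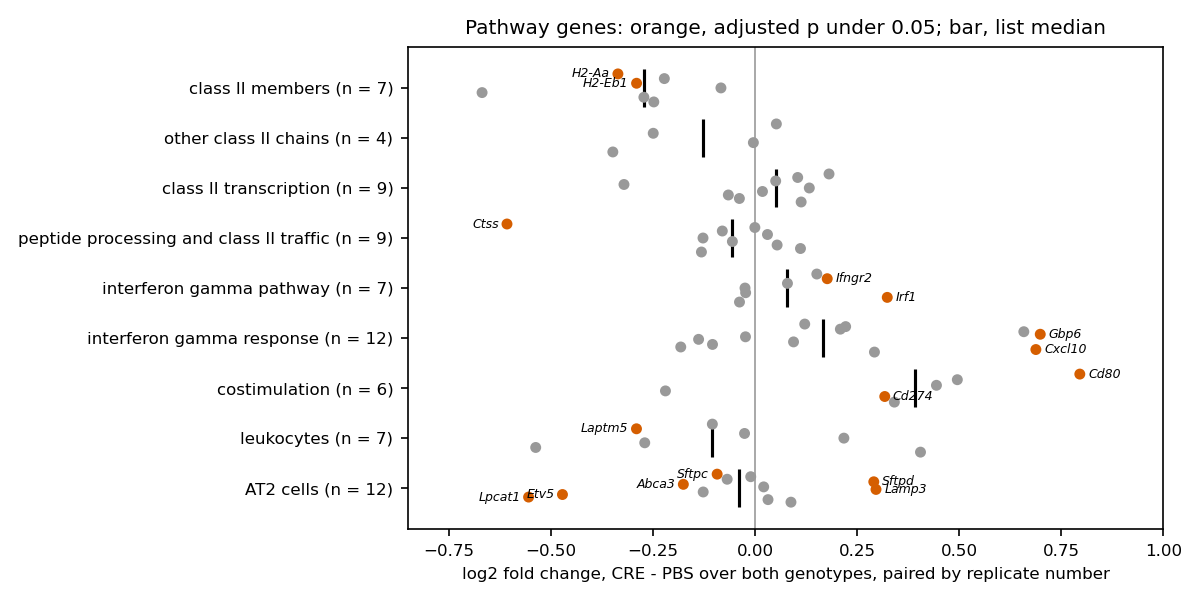
Paired log2 fold change of CRE against PBS over both genotypes (x axis) for each tested gene of the class II, interferon gamma, costimulation, leukocyte and AT2 lists (y axis), with genes at an adjusted p under 0.05 in orange and a bar at each list's median. The members lie below 0 with a median of -0.27, whereas the costimulation genes have a median of 0.39 and the class II transcription genes 0.05.

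Among the members, the 3 chain genes were the most alike across libraries, with r of the log2 CPM of 0.94 for H2-Aa and H2-Ab1, 0.95 for H2-Aa and H2-Eb1 and 0.92 for H2-Ab1 and H2-Eb1 (n = 12 libraries, as a description). Ciita had r of 0.76 to 0.85 with these 3 genes and 0.28 with Cd74. H2-DMb1 had r between -0.19 and 0.15 with every other member. The tested genes most like the mean log2 CPM of H2-Aa, H2-Ab1, H2-Eb1 and Cd74 over the 12 libraries were Mturn (r 0.95), Gm8369 (0.93), Igkc (0.92), Igha (0.91), Tmem191c (0.91), Kcnip2 (0.90), Ubash3a (0.90), Kynu (0.90), Ifi206 (0.90) and Gm30948 (0.90). Igkc and Igha, which encode immunoglobulin chains of B lineage cells, ranged from 66.9 to 1048 CPM and from 81.2 to 1222 CPM. The lowest library of Mturn was at 3.81 CPM, of Gm8369 at 0.27 and of Tmem191c at 0.24. It was 0 CPM for Gm30948, 0.052 for Ifi206, 0.054 for Kynu and 0.107 for Kcnip2 and Ubash3a, levels of few counts.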

How the data were processed

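Strand-specific mRNA libraries of 12 samples were sequenced, per the labels. The authors aligned reads with STAR 2.7.2b to GRCm38 in Partek and quantified with Salmon. They deposited whole-number counts and FPKM values per gene. The study's methods name RefSeq for the annotation of the aligned reads. The annotation behind the deposited gene IDs and the rounding are not given in the sources used here. All 55450 gene IDs were matched to GENCODE M21.

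Counts of all 12 libraries were fitted with edgeR 4.0.16 in R 4.3.3 (TMM, minimum count 10, quasi-likelihood test, 4 group means, Benjamini-Hochberg over 20612 genes, threshold 0.05). DESeq2 1.42.0, limma-trend 3.58.1 (prior count 2), other filters and scalings, and single libraries left out were alternatives. FPKM was used only to compare levels between genes.

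Within a genotype, CRE and PBS libraries of one number deviated together over 14543 genes (r 0.729, 0.418 and 0.651 in WT, 0.589, 0.542 and 0.325 in AhR). The number was therefore a block. The fit of group means was checked on simulated counts. The fits with the block or with the leukocyte covariate were not checked in this way. No replicates agreed within counting noise (lowest chi-square per degree of freedom 58.5). Named genes were all members, the other chains and transcription genes, called genes of the pathway lists, a few fixed regulators and the 10 genes most alike. A regulator among them is not reported here. Members, lists and tests were chosen with earlier results of these data known.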

Additional observations from a re-analysis of the deposited data

How the results depend on the processing

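No member was called, or lost a call, in any comparison with DESeq2, limma-trend, the unadjusted p and fold rule of the study, RLE scaling, no filter, only the libraries compared, the leukocyte covariate, or any single library left out. The replicate block changed counts: 1 member was called in WT and 2 over both genotypes, and with numbers 1 and 2 alone 1 was called over both, while it changed no other call. Between genotypes the numbers were used as a block within each treatment only as an alternative, whose values are given below. There r was 0.420 and 0.413 for number 1, but -0.029 to 0.106 for the others, and no label says what a number shares. Depth limited H2-Ea-ps, at no more than 3 counts, and the spread between libraries limited the members.

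Over 7 genes in 7 comparisons and all alternatives, 101 values changed sign, none past the threshold (lowest adjusted p = 0.569). The sign held for 819 others without a change of call and for 4 with a call gained. Of the 101, 63 came from leaving out 1 library. Among them was Ciita with CRE in WT, from -0.76 to 0.58 without the WT PBS library numbered 1. The WT CRE library of that number (4.11 CPM) stayed in the fit, and the log2 ratio of that pair was -0.82. The cause was not tested. For AhR against WT over both treatments, log2 values became 0.31 (H2-Aa), 0.32 (H2-Ab1) and 0.027 (H2-DMa) in the 8 libraries numbered 2 and 3, 0.056 (H2-Aa) with limma-trend and with the study's rule, 0.052 (H2-Aa) with the replicate block and -0.074 (H2-Eb1) with the leukocyte covariate. With CRE they became 0.0052 (Cd74), 0.28 (H2-Ab1) and 0.036 (H2-DMa) in those 8 libraries, 0.017 (H2-Ab1) with limma-trend and the study's rule, 0.014 (H2-Ab1) with the block, and for H2-Eb1 -0.0046 in the compared libraries alone and -0.077 with the covariate. With PBS they became 0.20 (H2-Aa), 0.35 (H2-Ab1) and 0.017 (H2-DMa) in the 8 libraries, and for H2-Eb1 -0.0013 in the compared libraries alone and -0.070 with the covariate. The interaction became -0.17 (Ciita), -0.073 (H2-Ab1) and -0.033 (H2-Eb1) in the 8 libraries, -0.40, -0.080, -0.0094 (H2-DMa) and -0.045 there with the block, and for Ciita and H2-Eb1 -0.25 and -0.033 with limma-trend and the study's rule, -0.21 and -0.033 with the block and -0.18 and -0.0063 with the covariate. Paired fits of numbers 1 and 3 gave 0.12 for H2-DMa with CRE in AhR and an interaction of -0.76 for Ciita, and those of numbers 1 and 2 an interaction of -0.059 for H2-Eb1.

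Leaving out a library moved AhR against WT over both treatments from -0.14 to 0.21 (H2-Aa), -0.21 to 0.16 (H2-Ab1), -0.14 to 0.0074 (H2-DMb1) and -0.15 to 0.25 (H2-Eb1), with CRE from -0.053 to 1.68 (Ciita), -0.12 to 0.49 (H2-Aa), -0.26 to 0.35 (H2-Ab1), -0.22 to 0.15 (H2-DMa) and -0.26 to 0.36 (H2-Eb1), and with PBS from -0.060 to 1.83 (Ciita), -0.37 to 0.34 (H2-Aa), -0.38 to 0.37 (H2-Ab1), -0.63 to 0.033 (H2-DMa) and -0.29 to 0.50 (H2-Eb1). CRE against PBS ran from -0.12 to 0.099 (Cd74) and -0.25 to 0.020 (H2-DMa) in AhR, from -1.93 to 0.58 (Ciita), -0.68 to 0.23 (H2-Ab1) and -0.68 to 0.18 (H2-Eb1) in WT, and from -0.43 to 0.022 (H2-Ab1) over both. The interaction ran from -0.012 to 0.28 (Cd74), -1.33 to 1.18 (Ciita), -0.25 to 0.60 (H2-Aa), -0.42 to 0.49 (H2-Ab1), -0.11 to 0.55 (H2-DMa) and -0.50 to 0.36 (H2-Eb1).

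Counts over all genes moved more. Beside 48, 54 and 226 genes for CRE in WT, AhR and both, DESeq2 called 409, 254 and 740, the study's rule 848, 696 and 828, the block 748, 439 and 1358, and the covariate 116, 123 and 443. The compared libraries alone gave 13 for CRE in AhR. Paired fits gave 139, 115 and 449 without number 1, 79 in WT without number 2 and 32 in AhR without number 3. Beside 31, 35 and 130 for AhR against WT with PBS, CRE and both, DESeq2 called 243, 174 and 522, the study's rule 846, 705 and 847, and the block 15, 22 and 65. The compared libraries alone gave 15 with PBS, and the 8 libraries 19 with CRE and 64 over both. Beside 0 for the interaction, DESeq2 called 23, the study's rule 475 and fits of 8 libraries 1 to 4. Leaving out a library gave 19 to 47, 23 to 62 and 125 to 219 for CRE, 15 to 26, 21 to 30 and 78 to 110 for genotype, and 0 to 2 for the interaction.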
